A study of Mus musculus with 6 samples.

Results

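The replication-dependent histone genes were taken as all protein-coding genes of the GENCODE M1 annotation (mouse genome build mm9) whose symbol begins with Hist1h, Hist2h, Hist3h or Hist4h, which gave 67 of 22367 protein-coding genes. They comprised 6 genes for the linker histone H1, 19 for H2A, 18 for H2B, 11 for H3 and 13 for H4. The choice used symbols only and no measured value. The study profiled accessible chromatin by ATAC-seq, in which a transposase cuts and tags DNA that is not tightly packed, so that stretches rich in cuts appear as peaks. There were 6 libraries, 2 technical replicates for each of 3 cell states of strain 129SV, and 1 peak list was deposited for each state. The ESC group was the J1 line of mouse embryonic stem cells, kept in serum medium with leukemia inhibitory factor (LIF) and the inhibitors CHIR99021 and PD0325901, on fibroblast feeder cells or gelatin. The 2 groups of expanded potential stem cells (EPSCs) were converted from these ESCs. D-EPSCs grew in N2B27 medium with knockout serum replacement, LIF, CHIR99021, dimethindene maleate and minocycline. L-EPSCs grew in a medium with knockout serum replacement, LIF, CHIR99021, PD0325901, A-419259, XAV939, JNK inhibitor VIII and SB203580. LIF and CHIR99021 were thus common to all 3 groups, each state was 1 line, and feeder cells were withdrawn from the EPSCs before the libraries were made.

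Replication-dependent histone genes supply the histones that package newly copied DNA, and they are transcribed mainly while cells replicate their DNA. Most are short and intronless, stand in clusters of near-identical copies, and make messenger RNAs that end in a conserved stem-loop, bound by the stem-loop binding protein, in place of a poly(A) tail. Embryonic stem cells divide fast and spend much of their cycle in DNA replication. H2A, H2B, H3 and H4 form the core of the nucleosome, H1 binds the DNA that enters and leaves it, and H2A and H2B genes often stand head to head and share 1 promoter region.

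The annotation and the genome bore out the name of the group. A stem-loop sequence lay within 150 bases after the last coding base in 63 of the 67 genes, 25 to 62 bases downstream (median 34.0), and 63 genes had a single coding segment. The 4 genes without a match were Hist2h2bb, Hist2h2be, Hist1h2an and Hist1h2al. The 2 commonest stem-loops of the group and the commonest one of the H4 genes are shown here because they set the H4 genes apart. All letters are in capitals, since the whole element is bound.
shared by 39 genes (5 H1, 15 H2A, 12 H2B, 7 H3): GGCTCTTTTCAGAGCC
shared by 9 genes (1 H1, 1 H2A, 4 H2B, 3 H3): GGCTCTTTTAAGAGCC
shared by 8 H4 genes: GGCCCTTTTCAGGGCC
None of the 13 H4 genes carried either of the first 2 forms, and none of the genes of another type carried the third.

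The peak lists held 28965 (ESC), 50225 (D-EPSC) and 46601 (L-EPSC) peaks on chromosomes 1 to 19, X and Y. Each peak had a position and no height or score, and no value per replicate, so no test across replicates could be made and the comparisons describe 3 lists. Read depth is unknown, and a gene without a peak is one without a called peak, not one shown to be closed. In bulk cells, strong access in some cells and weak access in all of them cannot be told apart. Of 10 stem cell marker genes, 8 had a peak within 1 kb of a start in the ESC list and 10 in each EPSC list, Nanog and Tdgf1 being without one in ESCs. Of 10 fibroblast marker genes, 2 had one in the ESC list (Thy1 and Twist2), 5 in the D-EPSC list and 2 in the L-EPSC list, and Col3a1, Postn, Lum, Dcn and Prrx1 had none in any list. Of all protein-coding genes, 52.3%, 64.2% and 61.5% had such a peak in the ESC, D-EPSC and L-EPSC lists. The part of feeder cells in the results was not tested.

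More histone genes had a peak at a start in the EPSC lists than in the ESC list. A peak within 1 kb of an annotated start was found for 44 genes in ESCs, which is 65.7% (95% Wilson interval 53.7 to 75.9), against 52.3% of all protein-coding genes. In D-EPSCs the number was 61, which is 91.0% (81.8 to 95.8), against a background of 64.2%. In L-EPSCs it was 55, which is 82.1% (71.3 to 89.4), against 61.5%. The intervals cover counting error only, and they are too narrow where neighbouring genes share a peak. With overlapping start windows merged into 40, 31, 38 and 34 of them held a peak, so that 7 held one in D-EPSCs and not in ESCs, 3 in L-EPSCs and not in ESCs, and 0 the other way round. Among all protein-coding genes, counted without merging, 12.4% had a D-EPSC peak and no ESC peak, and 10.00% an L-EPSC peak and no ESC peak. The 7 of 40 windows were a larger share than this background, but the 3 of 40 were a smaller one. The lists were nested for the histone genes: each of the 44 genes with an ESC peak also had one in both EPSC lists, and each of the 55 genes with an L-EPSC peak had one in the D-EPSC list. Over all protein-coding genes, 98.9% of those with an ESC peak had one in D-EPSCs, 98.4% had one in L-EPSCs, and 98.1% of those with an L-EPSC peak had one in D-EPSCs, so near-complete nesting held over all genes too.

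The 67 genes fell into 4 classes. A peak in all 3 lists was found for 44 genes (65.7%), against 51.2% of all genes. A peak in both EPSC lists and not in the ESC list was found for 11 genes, which is 16.4% (9.42 to 27.1), against 9.09%. A peak in the D-EPSC list alone was found for 6 genes (8.96%), against 3.30%, and 6 genes (8.96%) had no peak in any list, against 34.4%. Of the 23 histone genes with no ESC peak, 17 (73.9%) had one in D-EPSCs and 11 (47.8%) had one in L-EPSCs, where 26.0% and 21.0% of all genes without an ESC peak did. The distance from a start to the nearest ESC peak ranged from 1008 to 33171 bp (median 2290) in the 11 genes of the EPSC class and from 1210 to 56920 bp (median 3812) in the 6 genes of the D-EPSC class, so some ESC peaks lay just outside the 1 kb limit. The EPSC lists were longer than the ESC list, and with each list limited to its 28965 widest peaks, 44, 56 and 50 histone genes had a peak in ESCs, D-EPSCs and L-EPSCs (65.7%, 83.6% and 74.6%), beside 52.3%, 59.4% and 57.0% of all genes.

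**Figure D1:**
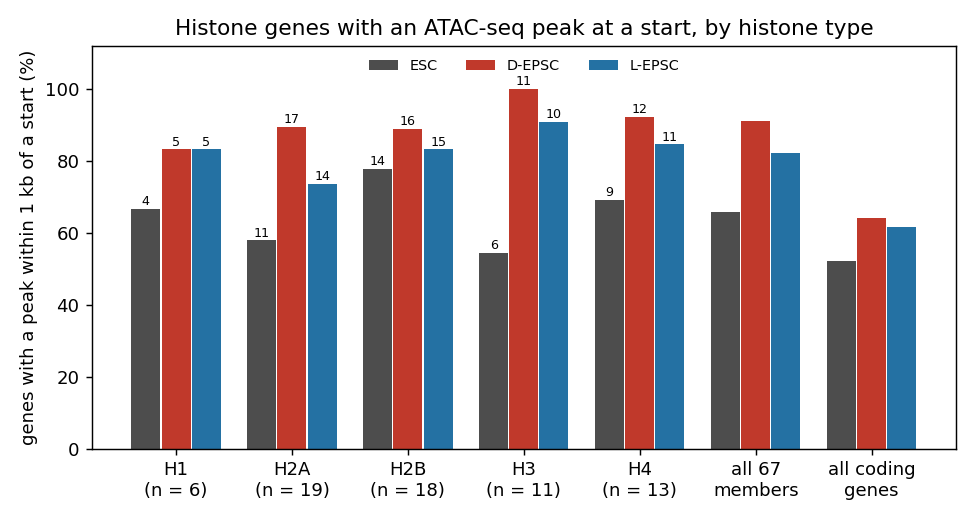
Share of genes (%) with an ATAC-seq peak within 1 kb of an annotated start, for each histone type, for all 67 histone genes and for all protein-coding genes. Bars stand for the ESC, D-EPSC and L-EPSC lists, and figures over the bars are numbers of genes. The H3 genes go from 6 of 11 in ESCs to 11 in D-EPSCs and 10 in L-EPSCs.

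The linker histone genes had the highest median width of the 5 types in each list. Of the 6 H1 genes, 4 had a peak in the ESC list, 5 in the D-EPSC list and 5 in the L-EPSC list, with median widths of 1320, 1215 and 1310 bp, beside 541, 742 and 691 bp for the widest start peak of all genes with one. Hist1h1d had the widest ESC start peak of the group, 1459 bp, with 1400 bp in D-EPSCs, then 1310 bp in L-EPSCs. Hist1h1c had peaks of 1122, 1215 and 1378 bp in the same order. These peaks lay over the gene body: their midpoints were 702, 560 and 606 bp downstream of the start for Hist1h1d and 550, 526 and 604 bp for Hist1h1c. Hist1h1e shared its peak of 1418, 1728 and 1559 bp with an annotated start of Hist1h2be that lies far from the coding sequence of that gene. Hist1h1b had 1 ESC peak of 1222 bp that ended 31 bp short of its start, 2 D-EPSC peaks of 515 and 431 bp in its place, and 1 L-EPSC peak of 1282 bp. Hist1h1a had no ESC peak, a D-EPSC peak of 680 bp and an L-EPSC peak of 279 bp over its start. Hist1h1t, the linker histone of developing sperm cells, had no start peak in any list. The 200 bases before Hist1h1e and Hist1h1t are shown because both hold CCAAT and a motif known from H1 promoters, but Hist1h1e had a wide peak in every list and Hist1h1t had none. Each is read toward the start on the strand of the gene. Capitals mark copies, on either strand, of any of 7 motifs: TATAAA, the core of the TATA box, then CCAAT, which the factor NF-Y binds, the octamer ATTTGCAT, which Oct factors bind, the H1 motif AAACACA, further TTTCGCGC and TTTGGCGC, which are forms of the E2F site, and the GC box, written GGGCGG.
Hist1h1e, chr13:23714372-23714571, minus strand: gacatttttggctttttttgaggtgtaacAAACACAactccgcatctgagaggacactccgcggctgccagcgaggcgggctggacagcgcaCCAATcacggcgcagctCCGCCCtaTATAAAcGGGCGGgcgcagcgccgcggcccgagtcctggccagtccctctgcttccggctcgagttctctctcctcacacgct
Hist1h1t, chr13:23787480-23787679, plus strand: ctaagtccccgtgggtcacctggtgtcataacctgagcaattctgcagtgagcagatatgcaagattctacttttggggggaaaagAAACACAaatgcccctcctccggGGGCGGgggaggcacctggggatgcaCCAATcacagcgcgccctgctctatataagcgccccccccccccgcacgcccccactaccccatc

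The H2A and H2B genes include the head-to-head pairs. A peak was found at 11, 17 and 14 of the 19 H2A genes and at 14, 16 and 15 of the 18 H2B genes in ESCs, D-EPSCs and L-EPSCs. Median widths were 653, 741 and 824 bp for H2A and 532, 848 and 837 bp for H2B. The genome held 12 divergent H2A and H2B pairs, with 167 to 305 bp between the annotated starts (median 228). An annotated start need not be where transcription begins. For 9 of the 67 genes (13.4%, against 11.9% of all genes) it was the first base of the coding sequence, which was so for 1 gene in 3 of the pairs and for both genes in 1, and there the stretch between starts, the motif window and cover of the start are counted from the coding sequence. A single peak covered both starts in 6 pairs in the ESC list, 10 in the D-EPSC list and 9 in the L-EPSC list, and both genes of a pair had a peak in 8, 10 and 9 pairs. Every one of the 12 stretches between the starts held at least 2 copies of CCAAT, while TATAAA was found in 5 and ATTTGCAT in 5. The sequences between the starts of 4 pairs are shown, 2 with a peak in all 3 lists, 1 with a peak in the EPSC lists only and 1 with no peak, with the same motifs in capitals. Each is read on the forward strand from the start of the first gene, which points left, to the start of the second, which points right.
Hist1h2ac and Hist1h2bc, chr13:23775818-23776067, peaks of 890, 1086 and 1673 bp: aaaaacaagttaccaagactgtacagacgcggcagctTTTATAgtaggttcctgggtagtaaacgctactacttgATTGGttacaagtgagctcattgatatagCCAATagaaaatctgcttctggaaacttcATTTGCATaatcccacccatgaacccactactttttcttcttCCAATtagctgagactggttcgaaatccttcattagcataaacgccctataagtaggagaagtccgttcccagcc
Hist2h2ac and Hist2h2be, chr3:96024804-96025043, peaks of 697, 741 and 2045 bp: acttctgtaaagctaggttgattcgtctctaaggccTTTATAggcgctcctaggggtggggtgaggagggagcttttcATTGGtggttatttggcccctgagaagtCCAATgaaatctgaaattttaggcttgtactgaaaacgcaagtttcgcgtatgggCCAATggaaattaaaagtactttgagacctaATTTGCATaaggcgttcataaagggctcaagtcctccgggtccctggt
Hist1h2bl and Hist1h2ai, chr13:21808013-21808280, no ESC peak, then 903 and 790 bp: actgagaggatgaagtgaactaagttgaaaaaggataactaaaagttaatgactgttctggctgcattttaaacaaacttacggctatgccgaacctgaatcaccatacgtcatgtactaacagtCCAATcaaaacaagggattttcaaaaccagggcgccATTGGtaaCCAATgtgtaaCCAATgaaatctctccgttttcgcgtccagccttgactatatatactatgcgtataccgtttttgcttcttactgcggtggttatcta
Hist1h2bq and Hist1h2ao, chr13:21902069-21902235, no peak: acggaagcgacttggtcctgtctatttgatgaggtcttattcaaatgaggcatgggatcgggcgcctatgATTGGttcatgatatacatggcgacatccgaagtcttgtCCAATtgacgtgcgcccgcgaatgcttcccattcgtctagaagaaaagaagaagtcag
The first 2 stretches hold the octamer and the last 2 do not, but the octamer was absent from other pairs with a peak in every list, being present in 5 of the 12.

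Among the H2A and H2B genes without an ESC peak, the widths differed widely. Hist1h2ab had none in ESCs, 521 bp in D-EPSCs, then 514 bp in L-EPSCs. Hist1h2al, which stands alone on chromosome 13, had 2 D-EPSC peaks of 391 and 552 bp that ended 22 and 23 bp to either side of its start, and 1 L-EPSC peak of 339 bp whose near edge was 472 bp away. Hist1h2af had a D-EPSC peak of 261 bp and no other. Hist1h2ba and Hist1h2aa, the testis-specific H2B and H2A genes, form a pair of their own and shared 1 D-EPSC peak of 645 bp, with none in ESCs or L-EPSCs. Hist2h2aa2 had a D-EPSC peak of only 139 bp, 564 bp from its start. Hist1h2bq, Hist1h2ao, Hist1h2ap and Hist1h2br had no peak in any list. The 15 H2A and H2B genes of the Hist1 family with a peak in every list and not named singly had widest peaks of 204 to 887 bp in ESCs, 419 to 1223 bp in D-EPSCs and 401 to 1047 bp in L-EPSCs.

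By peaks within 1 kb, the H3 genes had the lowest share of the 5 types in ESCs and the highest in both EPSC lists, but this order did not hold for peaks over the start itself. A peak was found at 6 of 11 in the ESC list (54.5%), 11 in the D-EPSC list (100%) and 10 in the L-EPSC list (90.9%), with median widths of 384, 521 and 684 bp. The ESC share of the H2A genes, 57.9%, was close to that of the H3 genes. Hist1h3i had only a D-EPSC peak, of 511 bp, and Hist1h3d had narrow peaks of 124 bp in D-EPSCs, then 175 bp in L-EPSCs over its start. For 3 other genes without an ESC peak the widest peak belonged to a neighbour. The 903 bp D-EPSC peak and the 790 bp L-EPSC peak counted for Hist1h3h were those of the pair Hist1h2bl and Hist1h2ai, and only the D-EPSC list had a second peak, of 462 bp, over the start of Hist1h3h. Hist1h3c had a peak of 151 bp over its own start in D-EPSCs and none there in L-EPSCs, the peaks of 607 and 613 bp having their near edges 726 and 668 bp away. Hist1h3a had peaks of 203 bp in D-EPSCs, then 316 bp in L-EPSCs over its start, beside the peaks of 789 and 754 bp at Hist1h4a. Counting only peaks over the outermost start base, a measure added after the data were seen, 4, 9 and 6 of the 11 H3 genes had one (36.4%, 81.8% and 54.5%). The median widths of the H3 peaks were then 384, 390 and 290 bp, so the rise in width seen within 1 kb was absent. The same measure gave 33.3%, 83.3% and 83.3% for H1, 47.4%, 73.7% and 63.2% for H2A, 66.7%, 88.9% and 83.3% for H2B, and 53.8%, 92.3% and 76.9% for H4, beside 37.5%, 52.5% and 49.0% of all genes. By it, H1 was the lowest type in ESCs, and H3 was below H1, H2B and H4 in D-EPSCs and the lowest type in L-EPSCs. The 3 H3 genes with a peak in every list and not named singly had 188 to 400 bp in ESCs, 390 to 889 bp in D-EPSCs and 514 to 815 bp in L-EPSCs. The stretch before Hist1h3c is given as an example of an H3 gene without an ESC peak, with its CCAAT copies in capitals.
Hist1h3c, chr13:23837472-23837671, minus strand: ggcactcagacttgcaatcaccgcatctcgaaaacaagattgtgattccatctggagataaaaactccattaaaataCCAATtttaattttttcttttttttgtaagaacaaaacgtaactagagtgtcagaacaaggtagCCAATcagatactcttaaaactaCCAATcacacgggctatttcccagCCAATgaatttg

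The H4 genes held the largest change in width. A peak was found at 9 of 13 in the ESC list, 12 in the D-EPSC list and 11 in the L-EPSC list, with medians of 485, 814 and 906 bp. Hist1h4j had 2 ESC peaks, of 169 and 168 bp, which lay 721 bp before and 387 bp after its start, and 1 peak of 1946 bp in D-EPSCs and of 2115 bp in L-EPSCs that ran across the start. These were the widest start peaks of the group in both EPSC lists, 11.5 and 12.5 times the widest ESC peak of the gene. Hist1h4k, in the same block, had a D-EPSC peak of 839 bp and no peak in the other lists. Hist1h4i had none in ESCs, 621 bp in D-EPSCs, then 518 bp in L-EPSCs. Hist1h4c had 232, 850 and 1084 bp, and the peak was over the start in each list. Hist1h4n had none, 773 and 165 bp, and its near-copy Hist1h4m had no peak at all. The other 5 Hist1 genes for H4 had 266 to 723 bp in ESCs, 437 to 917 bp in D-EPSCs and 444 to 1015 bp in L-EPSCs. The 200 bases before Hist1h4j and Hist1h4k are shown because they are close copies with unlike peaks: shifted by 62 bases against each other, they were identical at 131 of 138 positions (94.9%), with a shared run of 55 bases. The annotated start of Hist1h4k was the first coding base, and that of Hist1h4j lay 62 bases before its coding sequence.
Hist1h4j, chr13:21826703-21826902, plus strand: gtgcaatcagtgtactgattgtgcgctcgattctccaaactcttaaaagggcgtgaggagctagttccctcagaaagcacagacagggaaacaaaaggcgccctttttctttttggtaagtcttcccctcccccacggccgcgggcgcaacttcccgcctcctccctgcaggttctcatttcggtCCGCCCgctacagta
Hist1h4k, chr13:21842375-21842574, minus strand: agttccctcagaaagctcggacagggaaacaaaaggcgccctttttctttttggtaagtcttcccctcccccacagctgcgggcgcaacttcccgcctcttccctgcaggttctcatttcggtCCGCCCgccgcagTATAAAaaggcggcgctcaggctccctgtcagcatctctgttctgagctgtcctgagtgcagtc
Both hold the GC box. TATAAA stands in the printed stretch of Hist1h4k, and Hist1h4j also holds 1 copy in its motif window, which spans the annotated start, with 2 bases inside the print and 4 past it.

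**Figure D2:**
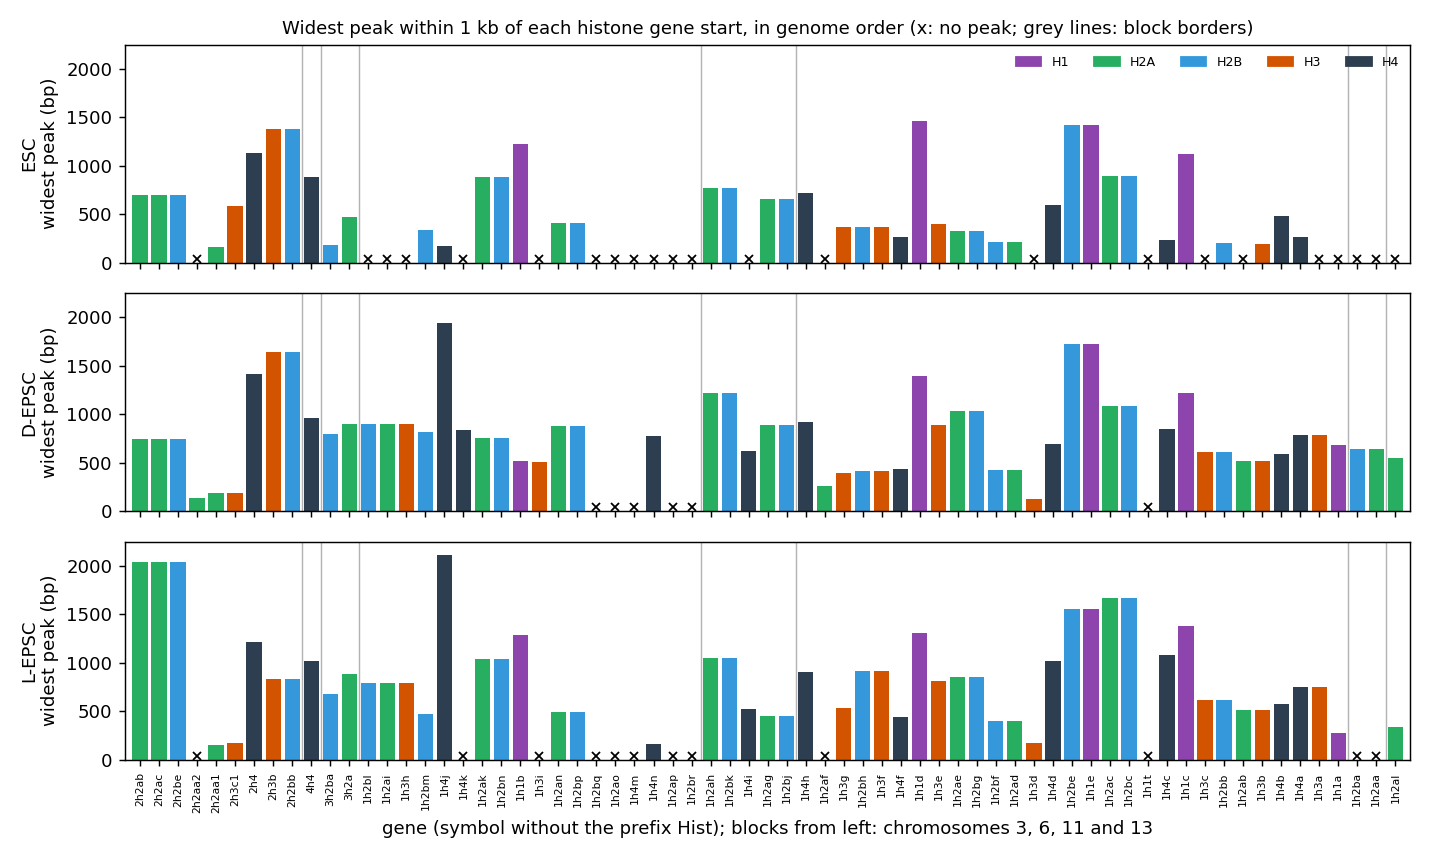
Width (bp) of the widest peak within 1 kb of a start for each of the 67 histone genes in genome order, in the ESC list (top), the D-EPSC list (middle) and the L-EPSC list (bottom). Bars are coloured by histone type, crosses mark genes with no peak, and grey lines part the blocks of genes. Crosses mark 23 genes in the ESC list, 6 in the D-EPSC list and 12 in the L-EPSC list.

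The genes stood in 8 blocks with gaps of over 100 kb between them, and the blocks differed in how many genes had a peak. The Hist2 genes on chromosome 3 (chr3:96023839-96082924, 59.1 kb, 9 genes) had a peak at 8, 9 and 8 starts in ESCs, D-EPSCs and L-EPSCs. Hist2h2ab, Hist2h2ac and Hist2h2be shared 1 peak that was 697 bp in the ESC list, 741 bp in D-EPSCs, then 2045 bp in L-EPSCs. In the first 2 lists a second peak, of 168 and 536 bp, lay over the start of Hist2h2ab, and the L-EPSC list had a single peak in place of both. Hist2h3b and Hist2h2bb went the other way: 1 peak of 1384 bp in ESCs and 1 of 1638 bp in D-EPSCs covered both starts, where the L-EPSC list had 2 peaks, of 172 bp over the start of Hist2h3b and 837 bp over that of Hist2h2bb. Hist2h4 had 1131, 1418 and 1213 bp. Hist2h2aa1 had narrow peaks of 166, 185 and 149 bp that did not reach its start. Hist2h3c1 had the lowest ratios of EPSC to ESC width in the group, 0.318 in D-EPSCs and 0.298 in L-EPSCs, with 581, 185 and 173 bp. The 581 and 173 bp peaks lay beside another annotated start, 1740 and 1755 bp from the outermost one. The 185 bp peak was that of Hist2h2aa1, so the D-EPSC ratio compares peaks at unlike places. Near the outermost start Hist2h3c1 had the same peaks of 166, 185 and 149 bp as Hist2h2aa1.

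The Hist3 and Hist4 genes, which lie apart from the large clusters, had a peak in every list. Hist4h4 on chromosome 6 had 888, 961 and 1019 bp. On chromosome 11, Hist3h2a had 475, 901 and 881 bp, and Hist3h2ba had 183 bp in ESCs, which ended 153 bp before the start, and 801 and 676 bp across the start in the EPSC lists.

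The 55 Hist1 genes lie on chromosome 13 in 5 blocks. The block chr13:23622919-23856283 (233 kb, 29 genes) had a peak at 22, 28 and 27 starts, and the block chr13:22126982-22135545 (8.56 kb, 5 genes) at 4, 5 and 5. The block chr13:21807632-21929399 (122 kb, 18 genes) was the poorest of the large ones, with 7, 13 and 11, and it holds 5 of the 6 genes without a peak in any list. Hist1h2ba with Hist1h2aa, and Hist1h2al, form the last 2 blocks, with no ESC peak. The ESC, D-EPSC and L-EPSC peaks covered 4.22%, 7.60% and 7.54% of the 29-gene block, 2.63%, 7.63% and 5.60% of the 18-gene block, and 7.32%, 11.8% and 9.76% of the Hist2 block. Over chromosomes 1 to 19, X and Y the lists covered 0.474%, 0.880% and 0.793%.

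Widths at genes with a peak in both lists were compared gene by gene. The D-EPSC peak was wider than the ESC peak at 39 of 44 histone genes (88.6%), against 82.7% of all genes, and the L-EPSC peak at 37 of 44 (84.1%), against 77.2%. Between the EPSC lists, the D-EPSC peak was wider at 35 of 55 (63.6%), against 59.7%. These shares were near the background. The median ratio of D-EPSC to ESC width was 1.24 (1.36 over all genes), that of L-EPSC to ESC width 1.41 (1.27 over all genes), and that of D-EPSC to L-EPSC width 1.05 (1.05). By their widest start peak, the 5 genes narrower in D-EPSCs than in ESCs were Hist1h2ak, Hist1h2bn, Hist1h1b, Hist1h1d and Hist2h3c1, the last by peaks at unlike places. The median width of the widest start peak was 586 bp in ESCs (95% order-statistic interval 368 to 723), 789 bp in D-EPSCs (680 to 885) and 815 bp in L-EPSCs (613 to 918). Since neighbours share peaks, the 44, 61 and 55 genes rest on 35, 50 and 45 distinct peaks, of which 14, 19 and 18 lay at 2 or more of the genes and none at more than 3. Of these distinct peaks, 6 (17.1%), 9 (18.0%) and 13 (28.9%) were wider than 1000 bp, beside 7.37%, 20.7% and 16.8% of the distinct peaks at the starts of all genes. The median width of the distinct peaks was 412, 686 and 613 bp, beside 501, 664 and 620 bp at the starts of all genes.

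**Figure D3:**
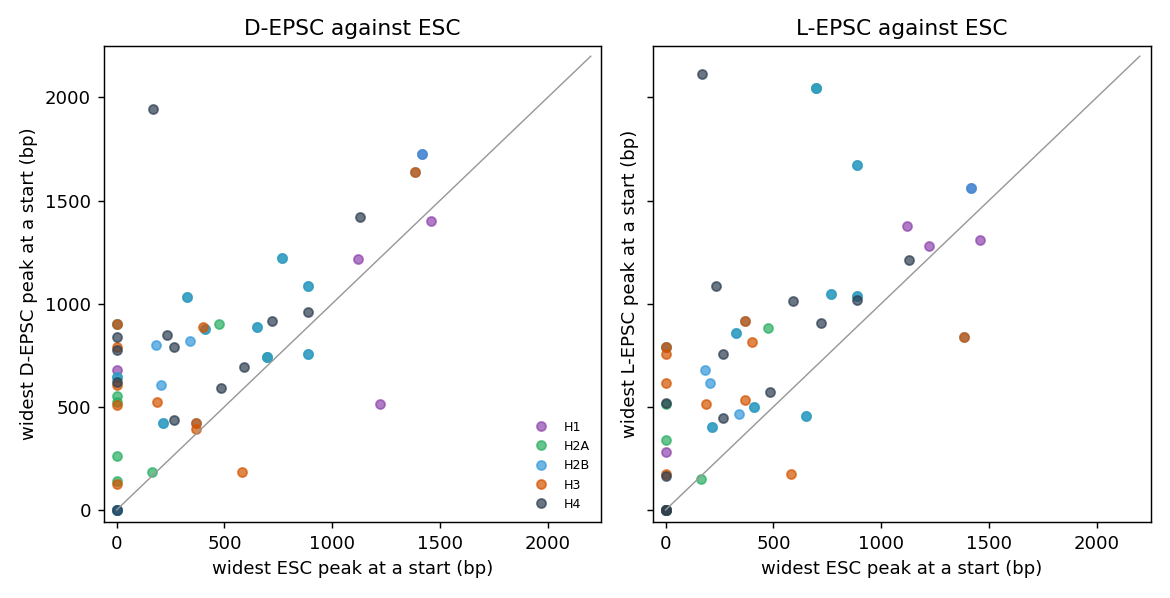
Width (bp) of the widest start peak of each histone gene in the D-EPSC list (left) and the L-EPSC list (right) against its width in the ESC list, with genes without a peak placed at 0 and the line of equal width in grey. Most points lie above the line (39 and 37 of 44 genes with a peak in both lists), and Hist1h4j is the point far above it at 1946 and 2115 bp.

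Most starts with a peak nearby lay under it. Among histone genes with a peak, the outermost start base itself lay under one in 34 of 44 genes in ESCs (77.3%), 56 of 61 in D-EPSCs (91.8%) and 48 of 55 in L-EPSCs (87.3%), beside 71.7%, 81.8% and 79.7% of all genes with a peak. Genes were taken in for a peak near any start, so one with a peak at an inner start alone counts as uncovered. With the outermost start alone the histone genes were still 44, 61 and 55, and the shares of all genes were not recomputed that way. The midpoint of the widest peak was at a median of -7.00, 17.5 and 57.0 bp from the start, downstream being positive, but single genes lay far to both sides, from -991 to 2030 bp in ESCs, where 22 midpoints were upstream and 22 downstream. Since the coding sequences are short (309 bp for H4, a median of 408 bp for H3, 390 bp for H2A, 378 bp for H2B and 648 bp for H1), a peak can span a whole gene. Counting every peak of a list, the coding sequence lay wholly under peaks in 12 of the 44 genes with an ESC start peak (27.3%), 28 of 61 with a D-EPSC one (45.9%) and 25 of 55 with an L-EPSC one (45.5%), beside 0.547%, 1.02% and 0.945% of all genes with a start peak, whose coding sequences were not matched for length. A median of 23.4%, 94.1% and 66.2% of it was covered, beside 0%, 3.44% and 2.91% over all genes. Over the same 44 genes with a peak in every list, it lay wholly under peaks in 12, 23 and 22. The stem-loop lay under a peak in 15 of 41, 23 of 57 and 22 of 51 genes that had both a stem-loop and a start peak (36.6%, 40.4% and 43.1%).

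**Figure D4:**
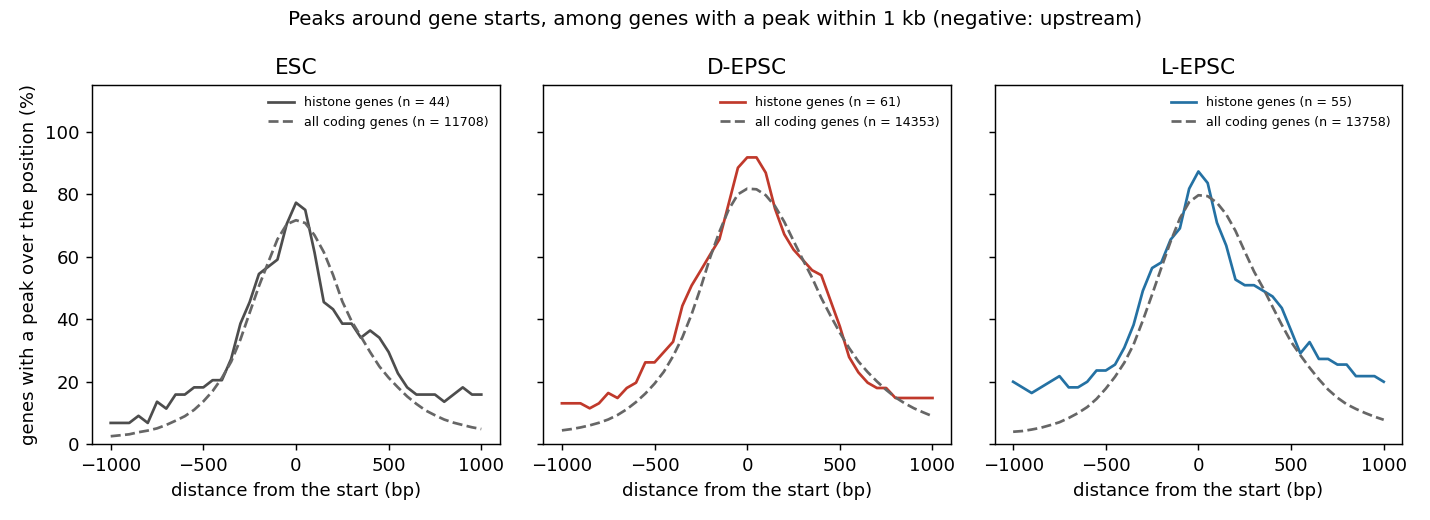
Share of genes (%) with a peak over each position from 1000 bp upstream to 1000 bp downstream of the outermost start, among genes with a peak within 1 kb, for the ESC, D-EPSC and L-EPSC lists. Solid lines are the histone genes (44, 61 and 55) and dashed lines all protein-coding genes (11708, 14353 and 13758). The solid lines peak at the start, at 77.3%, 91.8% and 87.3%, above the dashed lines at 71.7%, 81.8% and 79.7%. Genes were taken in for a peak near any of their starts, so genes with a peak at an inner start alone lower a line.

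The promoters of these genes shared motifs that differ by histone type. In the window from 250 bases before to 50 after the outermost start, CCAAT on either strand was found in 57 genes (85.1%), against 37.9% of all protein-coding genes, and TATAAA in 38 (56.7%), against 13.4%. The octamer ATTTGCAT was found in 15 genes (22.4%, against 1.73%), namely 7 H2A and 8 H2B genes. TTTCGCGC was found in 9 (13.4%, against 0.362%), 5 H2A and 4 H2B genes, and TTTGGCGC in none (0.680% of all genes). AAACACA was found in 10 (14.9%, against 6.42%), including 5 of the 6 H1 genes. GGGCGG was found in 28 (41.8%, against 43.4%), with 10 of 13 H4 genes and 1 of 11 H3 genes among them. Motifs were counted apart from each other where they overlap. The windows of head-to-head pairs overlap, so 1 copy between their starts can count for both genes, and the shares are not adjusted for it. The octamer stood between the starts of 5 of the 12 H2A and H2B pairs. CCAAT was in all H1, H2A and H2B genes and in 10 of 11 H3 genes, Hist1h3f lacking it, but in only 4 H4 genes. Hist1h4c, Hist1h4m and Hist1h4n were the H4 genes without GGGCGG. Hist1h4c had a peak in every list and Hist1h3f was near 2 in each, none of them over its start. The median GC content of the windows was 46.0% (33.3 to 65.7), against 55.0% for all genes. The ratio of observed to expected CpG dinucleotides was 0.690, against 0.534.

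Repeated sequence went along with the absence of peaks at its extreme. In the 2 kb around a start, some of the 150-base sequences also occurred elsewhere in the genome for 52 of the 67 histone genes (77.6%), against 12.4% of all genes, with a median of 7.24% of the window. For 6 genes the share was above 50%, and all 6 lie in an inverted duplicate inside the 18-gene block. It was 100% for Hist1h2bq, Hist1h2ao, Hist1h2ap and Hist1h2br, 76.3% for Hist1h4m and 69.9% for Hist1h4n. The 167 bases between Hist1h2bq and Hist1h2ao, printed above, match those between Hist1h2ap and Hist1h2br on the other strand with 0 mismatches. These 6 genes included 5 of the 6 without any peak, and Hist1h4n was the sixth of the duplicate. Peaks were rare at all genes with over 50% repeated sequence, 1.45%, 2.25% and 2.11% of which had one. The sixth gene without a peak, Hist1h1t, had 0% repeated sequence. Without the 6 genes, a peak was found at 44, 60 and 54 of 61 histone genes (72.1%, 98.4% and 88.5%), beside 54.1%, 66.3% and 63.6% of all genes with at most 50% repeated sequence. Of the 15 histone genes with no repeated sequence, 13, 14 and 14 had a peak (86.7%, 93.3% and 93.3%), beside 57.7%, 70.5% and 67.6% of all such genes. Where the share was above 0 and up to 10%, the numbers were 12, 23 and 18 of 23 (52.2%, 100% and 78.3%), beside 24.7%, 31.8% and 30.0% of all such genes. Where it was above 10 and up to 50%, they were 19, 23 and 22 of 23 (82.6%, 100% and 95.7%), beside 11.7%, 16.8% and 15.0%. The part of repeated sequence, and of the upstream filter on mapping quality, in the missing peaks and in the difference between the lists was not tested.

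**Figure D5:**
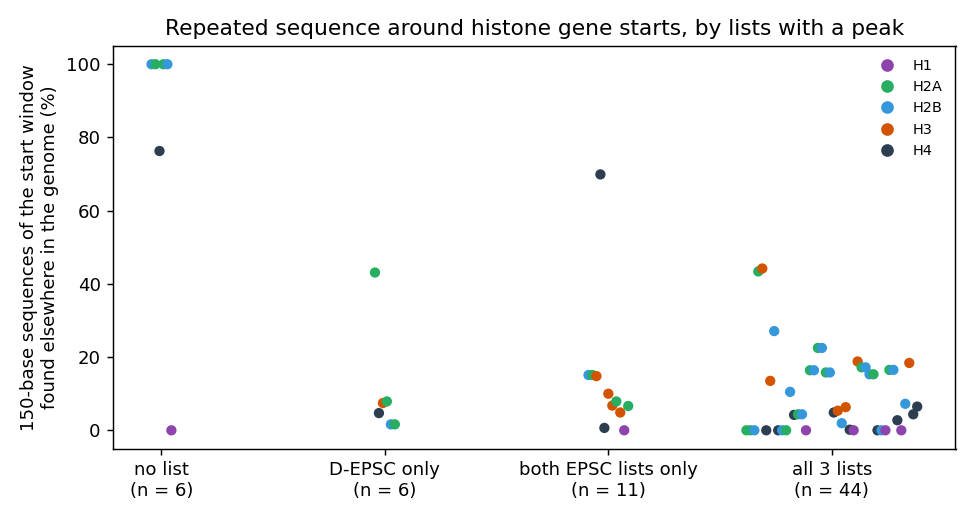
Share (%) of the 150-base sequences in the 2 kb around each histone gene start that occur elsewhere in the genome, with genes grouped by the lists in which they had a peak and coloured by histone type. Of the 6 genes with no peak, 5 lie between 76.3% and 100%, while the 44 genes with a peak in all 3 lists reach 44.2% at most.

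The histone variants are made outside replication as well and come from genes outside these clusters. Of 12 such genes found in the annotation, 9 had a peak in the ESC list (75.0%), 10 in the D-EPSC list (83.3%) and 10 in the L-EPSC list (83.3%), beside the 52.3%, 64.2% and 61.5% of all genes. Their median widths were 763, 1009 and 944 bp, and single genes ranged from 336 to 1226 bp in ESCs, 429 to 1784 bp in D-EPSCs and 399 to 1857 bp in L-EPSCs. H2afj, an H2A variant gene on chromosome 6, where Hist4h4 also lies, was without an ESC peak and had 429 and 399 bp in the EPSC lists, and H1foo and H2afb1, germline forms, had none in any list. A further 27 genes were chosen for histone gene transcription, 3' end processing, cell cycle entry and histone deposition. All 27, such as Slbp, Npat, Lsm10, Lsm11, Casp8ap2 and Asf1b, had a peak in all 3 lists, against 51.2% of all genes. Ribosomal protein genes, another large group of highly transcribed genes, with many processed pseudogenes, had a peak at 81, 96 and 94 of 148 (54.7%, 64.9% and 63.5%). After pseudogene-like symbols and 2 kinds of unrelated symbols were left out, a step chosen after the data were seen, the numbers were 69, 83 and 82 of 84 (82.1%, 98.8% and 97.6%), so an ESC share below both EPSC shares was seen in that list as well.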

How the data were processed

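The authors trimmed paired reads of 150 bp with Trim Galore 0.6.3, mapped them to mm9 with Bowtie2 2.3.5, filtered them with SAMtools 1.10 for properly paired, well-mapped reads, and ran MACS with default settings to define peaks. How the 2 technical replicates of a state were combined, and how duplicates were treated, is not given in the sources used here. The deposited values are start and end positions of peaks, 1 list per state. They hold no height, score, read count or value per replicate, so only presence, width and position were used, without tests.

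Starts, coding segments and strands came from GENCODE M1 and sequences from the mm9 genome. A gene had a peak when a peak overlapped the 1 kb on either side of any annotated start by at least 1 bp. Shares carry 95% Wilson intervals, which cover counting error only, and medians carry order-statistic intervals. Blocks were split at gaps of over 100 kb. Repeated sequence was the share of the 150-base sequences of a start window found elsewhere in the genome on either strand. Python 3.11.15, numpy 2.4.6, pandas 2.3.3, scipy 1.17.1, numba 0.67.0 and bedtools 2.31.1 were used, and the overlap, motif and repeat steps were tested on simulated data with known answers.

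The gene group, the comparison lists and the motifs were chosen with earlier results of these data known. Genes were named singly when they lacked a peak in at least 1 list, had 1 of the 3 widest start peaks of a list, were Hist2, Hist3, Hist4 or H1 genes, or lacked the motif most genes of their type hold. That rule named 44 genes, and the others are given as ranges. Hist1h2ak, Hist1h2bm, Hist1h2bn and Hist1h4a are named outside it, after their values were seen, as is Hist1h2an for its lack of a stem-loop. H1f0, on the list of variants, was not found under that symbol.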

Additional observations from a re-analysis of the deposited data

How the results depend on the processing

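The shares, their differences and the median widths were recomputed under 12 alternatives, 2 of which (leaving out genes with over 50% repeated sequence, and counting only peaks over the outermost start base) were chosen after seeing the data. Of 108 values, 95 stayed within the interval of the reported value, 13 left it and 0 reversed a difference. For the differences that interval treats the lists as independent, although they hold the same genes, so it served only to sort these values. With a window of 2.5 kb the share was 76.1% in ESCs, 89.6% in L-EPSCs and 76.1% in all 3 lists. With the widest 50% of each list it was 41.8% in ESCs and 40.3% in all 3 lists, the ESC median width was 767 bp, and the D-EPSC and L-EPSC shares exceeded the ESC share by 41.8 and 31.3 percentage points, in place of 25.4 and 16.4. Under that setting 39.3%, 57.1% and 53.5% of all genes had a peak in the ESC, D-EPSC and L-EPSC lists, in place of 52.3%, 64.2% and 61.5%, so the lists lay further apart over all genes too. With overlapping windows merged into 40, the share was 77.5% in ESCs (31 windows) and 77.5% in all 3 lists, with 38 windows in the D-EPSC list and 34 in the L-EPSC list, so that 3 windows, in place of 11 genes, had an L-EPSC peak and no ESC peak, and 7, in place of 17, a D-EPSC peak and no ESC peak. Over all genes, counted without merging, the shares were 10.00% for L-EPSCs and 12.4% for D-EPSCs. The 3 of 40 windows were a smaller share than that of all genes, and the 7 of 40 a larger one. With a peak over the start base the share of histone genes was 50.7% in ESCs and 50.7% in all 3 lists, beside 37.5% of all genes in ESCs. Without genes with over 50% repeated sequence the D-EPSC share was 98.4%. At equal list length the differences were 17.9 and 8.96 percentage points. No paired analysis was possible because each state has 1 list with no value per replicate, so replicates could not be matched, and the lists were compared gene by gene in place of it. Leaving out a replicate was not possible either. Depth is unknown, so it could not be matched.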

Other observations

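Several peaks inside the histone gene blocks lay at no start of the 67 genes. In the Hist2 block, a peak inside the annotated body of Hist2h2bb, about 8 kb from its start, was in all 3 lists, with 270 bp in ESCs, 934 bp in D-EPSCs (chr3:96081552-96082485) and 885 bp in L-EPSCs. In the 29-gene block, a D-EPSC peak of 1046 bp (chr13:23677432-23678477) had a counterpart of 281 bp in L-EPSCs and none in ESCs. These peaks lay over the coding sequence of Hist1h2be, which was not covered at all in the ESC list, covered to 100% in the D-EPSC list and to 34.1% in the L-EPSC list, whereas the start peaks counted for that gene lie beside Hist1h1e. Next to the inverted duplicate, peaks of 277 bp in D-EPSCs, then 471 bp in L-EPSCs lay 1532 and 1319 bp from the start of Hist1h4n, with no ESC peak there.

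The annotation calls 3 genes with a replication-dependent histone symbol pseudogenes, and they were kept out of the counts. Hist1h2aj, 87 bp from the start of Hist1h2bm, had start peaks of 340 bp in the ESC list, 819 bp in D-EPSCs, then 467 bp in L-EPSCs. Hist3h2bb-ps, 173 bp from Hist3h2a, had 475, 901 and 881 bp. Hist2h3c2, with 65.6% of its start window repeated elsewhere in the genome, had no ESC peak, then 1307 bp in D-EPSCs, then 395 bp in L-EPSCs.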
